A study of Homo sapiens with 28 samples.

Results

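The luminal transcription factors GATA3, FOXA1, TFAP2A, TFAP2C, SPDEF and ELF3 were examined in T47D cells, an established luminal breast cancer cell line, for where ZHX2, CTCF and histone H3 lysine 27 acetylation (H3K27ac) lay around their genes. They were chosen by symbol and are 6 of 19821 protein-coding genes with a position on GRCh38. Every peak that overlapped a gene or the 20 kb on either side of it was assigned to that gene, and this stretch is called the gene's window.

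Chromatin immunoprecipitation followed by sequencing (ChIP-seq) had been carried out in hypoxia, in a hypoxia workstation, and in normoxia, and the series asks how ZHX2 is placed on chromatin in hypoxia. The 28 samples comprise 16 immunoprecipitated samples in 8 groups of 2 and another 12 without antibody, 4 of which carry Flag in their titles and were kept apart. The groups were ZHX2, CTCF and H3K27ac, each in hypoxia and in normoxia, and ZHX2 with a Flag tag, as the PA mutant of the labels and as the wild type (WT), both in hypoxia. All groups are T47D, the protocol describes lentiviral infection with hygromycin or puromycin selection, and what PA stands for, the vectors and the oxygen level are not given in the sources used here. Each immunoprecipitated group had 1 peak list and no values per sample, so no difference between lists has a replicate check, no test was possible, and the depth is unknown. The lists held 32343 ZHX2 peaks in hypoxia and 14586 in normoxia, 77334 CTCF peaks in hypoxia and 88248 in normoxia, 46713 H3K27ac peaks in hypoxia and 42586 in normoxia, and 16019 Flag regions for PA and 31278 for WT.

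GATA3 is a zinc finger factor required for luminal mammary differentiation, and FOXA1 is a forkhead pioneer factor that opens chromatin for the oestrogen receptor. TFAP2A and TFAP2C are AP-2 family factors, TFAP2C being a regulator of ESR1 expression, and SPDEF and ELF3 are epithelial ETS factors. ZHX2 combines zinc fingers with homeodomains, CTCF binds DNA at loop anchors and insulators, and H3K27ac marks active promoters and enhancers, so that long H3K27ac domains are a usual feature of genes that define a cell's identity.

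GATA3 lies at chr10:8045333-8075198 on the plus strand and FOXA1 at chr14:37589552-37595249 on the minus strand. TFAP2A lies at chr6:10396677-10419659 and SPDEF at chr6:34537802-34556329, both on the minus strand. ELF3 lies at chr1:202010587-202017183 on the plus strand, and TFAP2C at chr20:56629306-56639283. The windows ranged between 45.7 kb at FOXA1 and 69.9 kb at GATA3. Other protein-coding genes reach into 3 of them, TTC6 at FOXA1, PACSIN1 at SPDEF and RNPEP at ELF3, and antisense genes overlap the GATA3, TFAP2A and ELF3 windows, so a peak there is not a peak of the named gene alone.

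Promoters of 300 bases (250 before and 50 after a gene start) were in the RefSeq table of GRCh38.p14 for 5 of the 6 genes, with 6 starts for GATA3, 2 for TFAP2A and 1 each for FOXA1, SPDEF and ELF3. Every one of these promoters had a ZHX2 peak in at least 1 condition, and 6 are printed below as examples. GATA3 starts 1, 2, 5 and 6 and TFAP2A start 2, which are not printed, had it in hypoxia alone. At TFAP2A start 2 a normoxia peak overlapped that hypoxia peak outside the promoter. Of the 6 printed, FOXA1 had a ZHX2 peak in both conditions and GATA3 start 4 in normoxia alone. The other 4 of those printed had it in hypoxia alone, GATA3 start 3 only through the edge of a peak. Each is written 5′ to 3′ on the strand of its gene, and capitals mark matches on either strand to 6 motifs, namely AGATAA for GATA factors, TGTTTAC for forkhead factors, GCCNNNGGC for AP-2 factors, AGGAAGT for ETS factors, ACGTG for the core of the hypoxia response element, and AGGNGGC for part of the CTCF motif.
FOXA1 (chr14:37595200-37595499, minus strand): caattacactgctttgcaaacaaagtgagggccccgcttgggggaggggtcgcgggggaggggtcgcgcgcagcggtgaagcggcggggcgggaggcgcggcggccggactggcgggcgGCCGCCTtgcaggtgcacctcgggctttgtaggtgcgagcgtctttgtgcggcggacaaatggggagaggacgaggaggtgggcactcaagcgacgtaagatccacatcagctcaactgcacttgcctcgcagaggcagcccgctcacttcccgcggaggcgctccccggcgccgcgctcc
GATA3 start 3 (chr10:8050986-8051285, plus strand): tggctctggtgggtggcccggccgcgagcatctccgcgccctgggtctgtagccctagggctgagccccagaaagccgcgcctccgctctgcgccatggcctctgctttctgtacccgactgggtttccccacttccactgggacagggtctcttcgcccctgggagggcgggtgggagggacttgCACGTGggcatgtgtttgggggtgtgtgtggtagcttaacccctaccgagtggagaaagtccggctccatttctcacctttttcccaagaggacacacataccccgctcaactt
GATA3 start 4 (chr10:8053391-8053690, plus strand): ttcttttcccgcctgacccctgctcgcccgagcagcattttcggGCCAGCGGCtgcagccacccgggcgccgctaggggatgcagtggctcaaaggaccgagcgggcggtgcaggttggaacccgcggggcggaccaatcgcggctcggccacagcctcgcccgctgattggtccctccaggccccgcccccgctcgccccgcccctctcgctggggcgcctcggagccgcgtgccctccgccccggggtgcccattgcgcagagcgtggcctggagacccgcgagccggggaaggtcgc
TFAP2A start 1 (chr6:10419610-10419909, minus strand): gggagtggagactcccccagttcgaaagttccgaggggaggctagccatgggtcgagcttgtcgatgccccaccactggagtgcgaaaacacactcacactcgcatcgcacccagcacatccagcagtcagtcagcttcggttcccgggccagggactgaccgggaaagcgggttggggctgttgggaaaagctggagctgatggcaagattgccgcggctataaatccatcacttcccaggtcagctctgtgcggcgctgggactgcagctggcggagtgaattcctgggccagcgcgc
SPDEF (chr6:34556280-34556579, minus strand): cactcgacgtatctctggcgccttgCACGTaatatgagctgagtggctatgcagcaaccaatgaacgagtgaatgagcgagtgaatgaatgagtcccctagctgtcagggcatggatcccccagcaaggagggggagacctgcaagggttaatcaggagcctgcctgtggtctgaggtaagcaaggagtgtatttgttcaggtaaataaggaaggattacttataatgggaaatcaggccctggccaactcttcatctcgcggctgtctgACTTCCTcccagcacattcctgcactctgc
ELF3 (chr1:202010337-202010636, plus strand): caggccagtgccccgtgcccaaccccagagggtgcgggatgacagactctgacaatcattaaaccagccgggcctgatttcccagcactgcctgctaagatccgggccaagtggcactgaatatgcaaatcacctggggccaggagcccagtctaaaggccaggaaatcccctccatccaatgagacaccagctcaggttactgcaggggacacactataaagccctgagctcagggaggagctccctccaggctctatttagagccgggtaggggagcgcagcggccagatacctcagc
Over all 35116 promoters of the table, 21.4% held ACGTG, 8.24% the ETS letters, 23.2% the AP-2 letters, 35.9% the CTCF letters, 10.3% the GATA letters and 3.42% the forkhead letters. Among the 11 promoters of the luminal factors, ACGTG was in GATA3 start 3 and SPDEF, the ETS letters in SPDEF, the AP-2 letters in GATA3 starts 1, 4 and 5, and the CTCF letters in FOXA1, TFAP2A start 2 and GATA3 starts 1 and 2. In GATA3 start 3 the 2 ACGTG matches overlap as the palindrome CACGTG. Neither these matches nor the ACGTG of SPDEF lay inside a hypoxia ZHX2 peak, which covered another part of each promoter. The GATA and forkhead letters were in none of the 11, which says only that those letters are not in these windows.

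At these promoters a ZHX2 peak was listed at 10 of 11 in hypoxia and at 2 of 11 in normoxia, against 35.7% in hypoxia and 14.8% in normoxia of the 34961 RefSeq promoters on chromosomes 1 to 22 and X. The starts of 1 gene are not independent, since GATA3 gives 6 of the 11. GATA3 start 3 counted for hypoxia alone by a narrow margin. Its hypoxia peak ended at chr10:8051000, just inside the promoter, and a normoxia peak began at chr10:8051286, just past the promoter's end at chr10:8051285. At the FOXA1 promoter the ZHX2 peak was 1501 bp wide in hypoxia and 695 bp wide in normoxia, with a fold enrichment of 4.15 in the hypoxia list and 5.01 in the normoxia list (the authors' peak height over background, which ranks peaks within a list and is not comparable between lists). The TFAP2A start 1 promoter held a hypoxia peak of 1179 bp and fold 5.76, higher than 92.0% of the hypoxia list, and no normoxia peak. SPDEF had a hypoxia peak of fold 2.35, higher than 7.41% of the list, and ELF3 one of fold 2.86, higher than 28.1%, and neither had a normoxia peak at the promoter. GATA3 start 4 was the exception, with a normoxia peak of 431 bp (fold 2.58) and no hypoxia peak, while GATA3 start 5, about 1 kb further into the gene, had a hypoxia peak of 790 bp (fold 4.86) and no normoxia peak. CTCF peaks were listed at 8 of the 11 promoters in hypoxia and at 6 of 11 in normoxia (34.0% of all promoters in hypoxia and 34.8% in normoxia). The conditions differed only at GATA3 starts 2 and 3, which the hypoxia CTCF peaks reached just by an end. A normoxia CTCF peak overlapped each of these hypoxia peaks outside the promoter. Flag regions lay at 10 of 11 for PA and at 10 of 11 for WT (36.1% of all promoters for PA and 41.7% for WT), and GATA3 start 1 was the promoter without one.

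Every one of the 6 genes had peaks in all 8 lists. Having any peak in the window is common: 77.0% of protein-coding genes did so for ZHX2 in hypoxia and 52.0% in normoxia, 93.2% for CTCF in hypoxia and 94.3% in normoxia, 82.7% for H3K27ac in hypoxia and 81.6% in normoxia, and 68.4% for PA Flag and 77.1% for WT Flag. The number of peaks and the length they covered are therefore given for each gene.

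**Figure D1:**
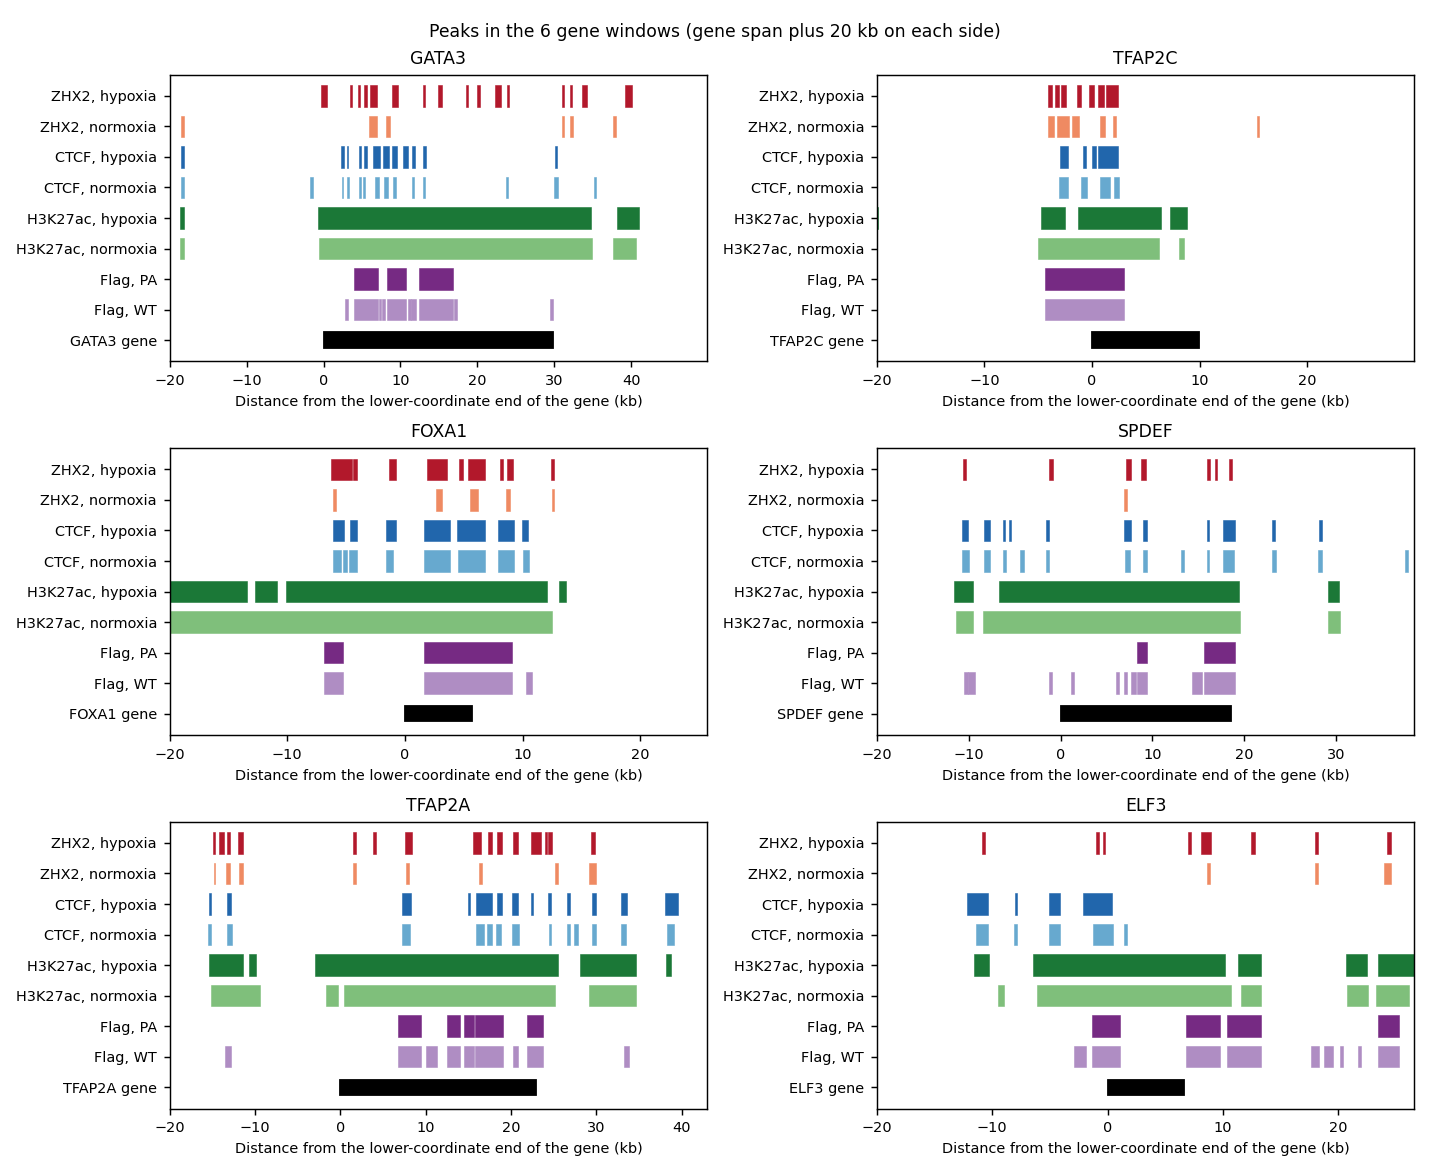
Peaks of the 8 lists in the windows of GATA3, FOXA1, TFAP2A, TFAP2C, SPDEF and ELF3, by distance in kb from the lower-coordinate end of each gene (black bar); each coloured block is a peak drawn to scale and cut at the window's edge. H3K27ac peaks overlap 60 of 62 ZHX2 peaks in hypoxia and 27 of 29 in normoxia, SPDEF has 7 ZHX2 peaks in hypoxia and 1 in normoxia, and TFAP2C has 1 Flag region of the same extent in both forms.

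ZHX2 peaks in the 6 windows numbered 62 in hypoxia and 29 in normoxia, and each gene had more in hypoxia, as did 59.0% of all protein-coding genes. GATA3 had 16 ZHX2 peaks in hypoxia and 6 in normoxia. FOXA1 had 9 in hypoxia and 5 in normoxia. These peaks covered 10.9% of the GATA3 window in hypoxia and 4.00% in normoxia, and 15.7% of the FOXA1 window in hypoxia and 4.24% in normoxia. The whole hypoxia list was longer than the normoxia list by nearly the same factor, with a ratio of 2.14 at the 6 genes and 2.22 over the whole lists, so the luminal factors held 0.192% of the hypoxia list and 0.199% of the normoxia list. When the hypoxia list was shortened to the length of the normoxia list by the authors' score, an alternative chosen after seeing the data, 30 hypoxia peaks stood against the 29 normoxia peaks.

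Among the AP-2 and ETS factors, TFAP2A had 15 ZHX2 peaks in hypoxia and 8 in normoxia, and TFAP2C had 7 in hypoxia and 6 in normoxia, the smallest difference of the 6 genes. SPDEF had 7 in hypoxia and 1 in normoxia, and ELF3 had 8 in hypoxia and 3 in normoxia. ZHX2 covered 13.0% of the TFAP2A window in hypoxia and 5.26% in normoxia, 7.56% of the TFAP2C window in hypoxia and 6.47% in normoxia, and 5.90% of the ELF3 window in hypoxia and 2.53% in normoxia. SPDEF had the fewest normoxia peaks, and its covered share was 4.52% in hypoxia and 0.485% in normoxia. In hypoxia all 6 genes lay above the 90th percentile of protein-coding genes by covered share (4.34%), with FOXA1 at the 99.7th percentile and SPDEF at the 90.6th. In normoxia 5 of the 6 did (2.09%), led by TFAP2C at the 98.8th percentile, and SPDEF stood at the 65.3rd.

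**Figure D2:**
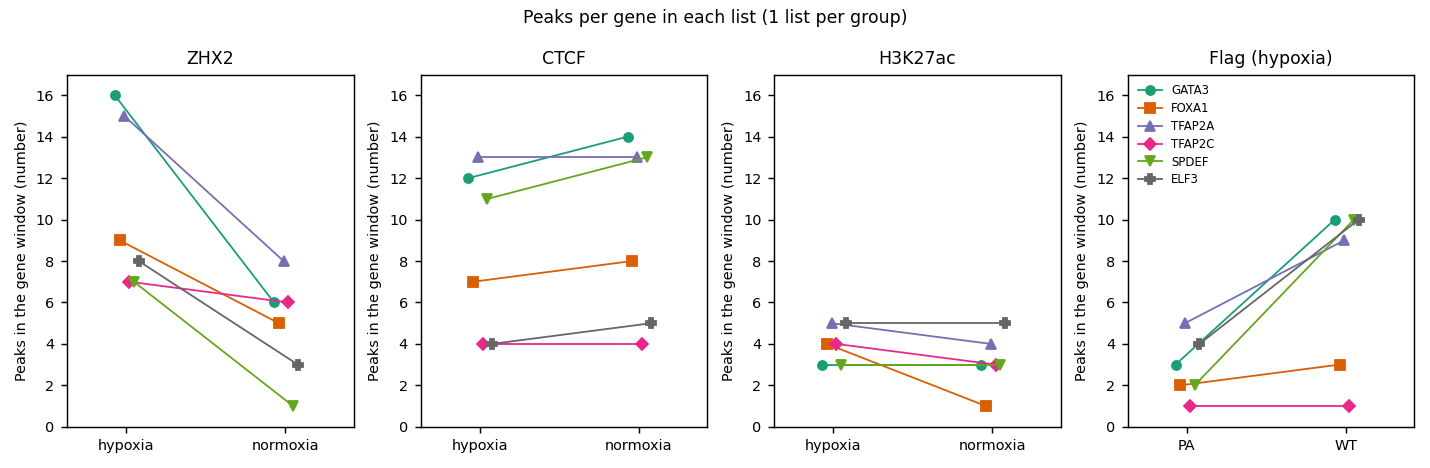
Number of peaks in each gene window for ZHX2, CTCF and H3K27ac in hypoxia (left) and normoxia (right), and for Flag with PA (left) and WT (right); each line is 1 gene and each point 1 list, without replicates. ZHX2 lines run down to normoxia for all 6 genes, most steeply for GATA3 (16 in hypoxia, 6 in normoxia) and TFAP2A (15 in hypoxia, 8 in normoxia), and Flag lines run up to WT for all genes but TFAP2C.

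Of the 62 hypoxia ZHX2 peaks, 37 had no overlapping normoxia peak (59.7%, 95% Wilson interval 47.3 to 71.0%, counting error over peaks only), against 72.6% of the whole hypoxia list. Among the 29 normoxia peaks, 5 had no hypoxia partner (17.2%, 7.60 to 34.5%), against 37.4% of the normoxia list. With lists of equal length this share was 48.3%. No whole-list share at equal length is given, so 37.4% is not its background, and the lower share at the 6 genes holds for the uncut lists only. As a share of a gene's own hypoxia peaks, those without a partner were most frequent at SPDEF (6 of 7) and GATA3 (13 of 16) and least frequent at TFAP2C (1 of 7). TFAP2A had 8 of 15, ELF3 5 of 8 and FOXA1 4 of 9. The 5 normoxia peaks without a partner were 3 at GATA3, 1 at TFAP2A and 1 at TFAP2C. At the 6 genes the hypoxia peaks without a partner had a median width of 351 bp and a median fold of 2.95, and those with a partner 475 bp and 3.52. Over the whole list the medians were 304 bp and 3.15 without a partner and 592.5 bp and 4.19 with one.

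Within 1 kb of either gene end, ZHX2 peaks were listed at 6 of 6 genes in hypoxia and at 2 of 6 in normoxia, where 56.3% of protein-coding genes had one in hypoxia and 29.7% in normoxia. The ZHX2 peak of highest fold in each hypoxia window had a fold between 5.05 (SPDEF) and 5.76 (TFAP2A), higher than 87.2 to 92.0% of the list. At GATA3 it lay 6.64 kb into the gene at chr10:8051379-8052294 (fold 5.68), and a normoxia peak overlapped it (fold 2.87). FOXA1 had it inside the gene at chr14:37591430-37593112 (1683 bp, fold 5.67), also with a normoxia partner (fold 4.53). TFAP2C had it before the lower-coordinate end at chr20:56625191-56625626 (fold 5.27), and ELF3 at chr1:202034771-202035149 (fold 5.66), 24.4 kb from its start. At SPDEF it lay at chr6:34536502-34536949 (fold 5.05), near the end of the gene farther from the promoter, and had no normoxia partner. The single normoxia peak of SPDEF lay inside the gene at chr6:34544765-34545048 (fold 3.74) and overlapped a hypoxia peak of fold 3.93.

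CTCF peaks in the 6 windows numbered 51 in hypoxia and 57 in normoxia, a ratio of 0.895 beside 0.876 for the whole lists. Fewer hypoxia than normoxia CTCF peaks were listed at 4 of the 6 genes, and at 41.8% of all protein-coding genes. GATA3 had 12 in hypoxia and 14 in normoxia, and SPDEF 11 in hypoxia and 13 in normoxia. FOXA1 had 7 in hypoxia and 8 in normoxia, and ELF3 4 in hypoxia and 5 in normoxia. TFAP2A had 13 in both conditions and TFAP2C 4 in both. In hypoxia 5 of 51 CTCF peaks had no normoxia partner (9.80%, 4.26 to 21.0%, against 6.96% of the list). In normoxia 8 of 57 had no hypoxia partner (14.0%, 7.29 to 25.3%, against 17.7% of the list), and both intervals hold the list's value.

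At GATA3, FOXA1 and ELF3 the CTCF peak of highest fold in hypoxia spanned a gene start. At GATA3 the highest fold was 110 in hypoxia and 204 in normoxia, both at start 4 (chr10:8053017-8053780 in hypoxia), the promoter that holds no hypoxia ZHX2 peak. FOXA1 had CTCF peaks over 2 kb wide across its promoter, chr14:37594020-37596363 with fold 177 in hypoxia and chr14:37594064-37596329 with fold 172 in normoxia, where the highest fold of the window was 226, inside the gene. The ELF3 promoter lay in a CTCF peak of 2491 bp and fold 173 in hypoxia and of 1749 bp and fold 140 in normoxia. SPDEF had its strongest CTCF peak outside the gene, at chr6:34527109-34527774 with fold 199 in hypoxia and fold 253 in the overlapping normoxia peak, and a hypoxia ZHX2 peak of fold 3.80 overlapped it. At TFAP2C the highest folds were 110 in hypoxia, inside the gene, and 97.3 in normoxia, before its lower-coordinate end. TFAP2A had the lowest maximum, 89.9 in hypoxia and 65.9 in normoxia, both at different sites.

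H3K27ac formed long domains over the luminal factors in both conditions. GATA3 lay in a domain of 35.5 kb in hypoxia and of 35.5 kb in normoxia, which reached across the whole gene. SPDEF had a domain of 26.1 kb in hypoxia and 28.0 kb in normoxia. The widest domain of TFAP2A was 28.5 kb in hypoxia and 24.7 kb in normoxia, and that of ELF3 16.7 kb in hypoxia and 16.9 kb in normoxia. The widest domain of each of these 4 windows was wider than 99.3 to 99.9% of the peaks of its list, and that of TFAP2C, 7.77 kb in hypoxia and 11.3 kb in normoxia, was wider than 96.3% of its list in hypoxia and 98.2% in normoxia. H3K27ac covered 68.6% of the FOXA1 window in hypoxia and 71.2% in normoxia, the highest of the 6, and 23.4% of the TFAP2C window in hypoxia and 23.6% in normoxia, the lowest. The other 4 windows lay between 50.2 and 64.4% in hypoxia and between 51.2 and 59.3% in normoxia, and the median of protein-coding genes was 5.25% in hypoxia and 4.77% in normoxia.

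**Figure D3:**
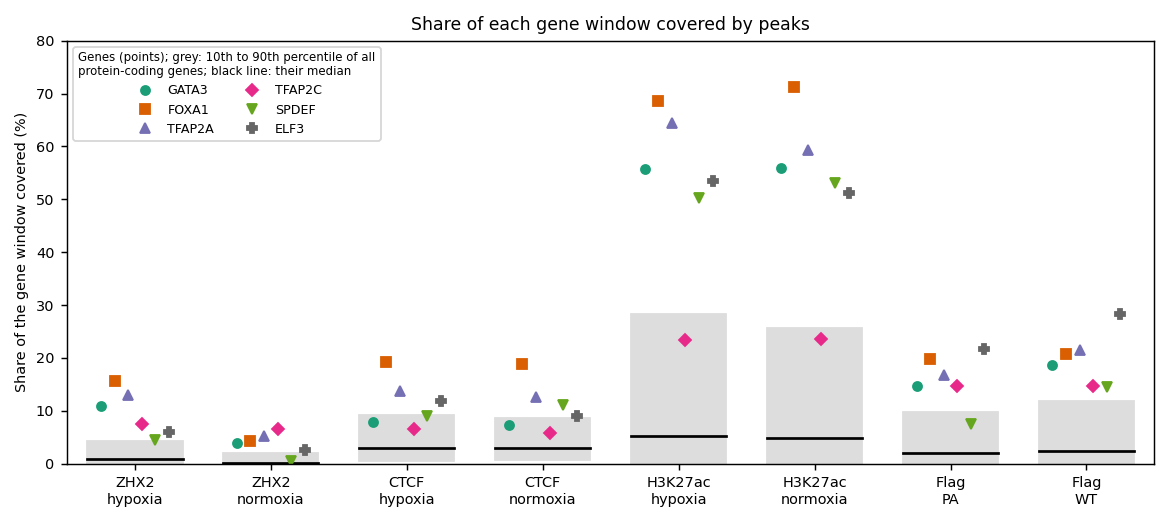
Share of each gene window covered by peaks of each list (%), with 1 point per gene, the median of all 19821 protein-coding genes as a black line and their 10th to 90th percentile in grey; hypoxia stands left of normoxia and PA left of WT. H3K27ac covers 50.2 to 71.2% of 5 windows and 23.4 to 23.6% of the TFAP2C window, and 3 of 6 CTCF points in hypoxia and 4 of 6 in normoxia lie above the grey range.

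The 6 windows had 24 H3K27ac peaks in hypoxia and 19 in normoxia. None of the 6 genes had fewer in hypoxia (12.8% of protein-coding genes did). FOXA1, TFAP2A and TFAP2C had more, and no share of all protein-coding genes with more is given. With a flank of 5 kb in place of 20 kb, 9 H3K27ac peaks were counted in hypoxia and 9 in normoxia. At FOXA1 1 normoxia domain of 59.6 kb spanned what hypoxia listed as peaks of 35.0, 1.93 and 22.2 kb separated by gaps of 685 and 724 bp. At TFAP2C a gap of 1187 bp in hypoxia was bridged by the 11.3 kb normoxia domain. TFAP2A had the reverse at its lower-coordinate end, where the 28.5 kb hypoxia domain bridged a normoxia gap of 712 bp, and a hypoxia gap of 681 bp was bridged by a normoxia peak of 5.75 kb. H3K27ac peaks without a partner were 3 of 24 in hypoxia (12.5%, 4.34 to 31.0%, against 19.4% of the list) and 1 of 19 in normoxia (5.26%, 0.935 to 24.6%, against 10.9% of the list). When peaks were matched by midpoints within 250 bp in place of overlap, 75% had no partner in hypoxia and 68.4% in normoxia, a rule under which long domains with shifted ends count as different.

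Most ZHX2 peaks at the luminal factors lay on acetylated chromatin. In hypoxia 60 of 62 overlapped an H3K27ac peak (96.8%, 89.0 to 99.1%), against 72.9% of the hypoxia list, and in normoxia 27 of 29 did (93.1%, 78.0 to 98.1%), against 56.7% of the normoxia list. The windows are themselves rich in H3K27ac, at a median cover of 54.6% in hypoxia and 54.5% in normoxia, and its part in the share was not tested. The hypoxia exceptions were a peak 12.5 kb from the lower-coordinate end of FOXA1, between H3K27ac peaks, and a peak 18.1 kb from the start of ELF3. Of the 37 hypoxia ZHX2 peaks without a normoxia partner, 36 overlapped a normoxia H3K27ac peak, against 69.2% over the whole list, and the 1 that did not lay 10.7 kb before ELF3. GATA3 gave 13 of these, with summits between 0.011 and 40.0 kb from the start of the gene.

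CTCF lay under 35 of the 62 hypoxia ZHX2 peaks (56.5%, 44.1 to 68.1%), against 45.6% of the list, and under 15 of the 29 normoxia peaks (51.7%, 34.4 to 68.6%), against 43.6%. With peaks reduced to 200 bp around their summits, the shares were 40.3% in hypoxia and 17.2% in normoxia. No whole-list share under this rule is given, so whether their difference is particular to these genes cannot be read from them. The members differed among themselves. At FOXA1 8 of 9 hypoxia ZHX2 peaks overlapped CTCF and at SPDEF 6 of 7, whereas at GATA3 5 of 16 and at ELF3 3 of 8 did. TFAP2A had 9 of 15 and TFAP2C 4 of 7. In hypoxia CTCF peaks covered 19.3% of the window at FOXA1, 8.99% at SPDEF, 7.95% at GATA3 and 11.8% at ELF3. They covered 13.8% at TFAP2A and 6.55% at TFAP2C, and the part of this cover in the shares was not tested. At GATA3 the 5 ZHX2 peaks on CTCF had summits between 4.67 and 13.0 kb from the start of the gene, and the 11 ZHX2 peaks without CTCF were on H3K27ac alone. Where ZHX2 and CTCF peaks overlapped, their summits were a median of 140 bp apart in hypoxia (35 peaks, 1 to 1044 bp) and 297 bp in normoxia (15 peaks, 32 to 1023 bp), with 141 bp in hypoxia and 174 bp in normoxia over the whole lists.

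Flag-tagged ZHX2 was compared between the PA mutant and WT, both in hypoxia. The windows held 17 PA regions and 43 WT regions, a ratio of 0.395 beside 0.512 for the whole lists. Of all PA regions, 15163 of 16019 had the very coordinates of a WT region and no other PA region touched one, and no source used here says how the lists came to share coordinates. Both lists hold positions only, so signal strength cannot be compared. GATA3 had 3 PA and 10 WT regions, SPDEF 2 PA and 10 WT, and ELF3 4 PA and 10 WT. TFAP2A had 5 PA and 9 WT regions, and FOXA1 2 PA and 3 WT. TFAP2C had the same region of 7362 bp in both forms. Fewer PA than WT regions were thus listed at 5 of 6 genes and at 48.7% of all protein-coding genes.

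All 17 PA regions were also WT regions (0 of 17 without a partner, 0 to 18.4%, against 5.34% of the PA list), and 26 of 43 WT regions were absent for PA (60.5%, 45.6 to 73.6%, against 51.5% of the WT list). The regions that both forms shared were the wide ones, between 1053 and 7422 bp with a median of 2714 bp, and those of WT alone were between 200 and 1307 bp with a median of 444.5 bp. The same held over the whole lists, with medians of 1575 bp for shared regions and 436 bp for WT alone. When the WT list was shortened to the length of the PA list by width, chosen after seeing the data, the 6 windows held 17 PA regions beside 21 WT regions, and 19.0% of those WT regions had no PA partner. No share over the whole shortened list is given, so whether 19.0% is particular to these genes cannot be read from it. The covered share accordingly differed less than the number: 19.7% for PA and 20.8% for WT at FOXA1, 14.7% for PA and 18.8% for WT at GATA3, and 7.44% for PA and 14.6% for WT at SPDEF, the largest difference in proportion.

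**Figure D4:**
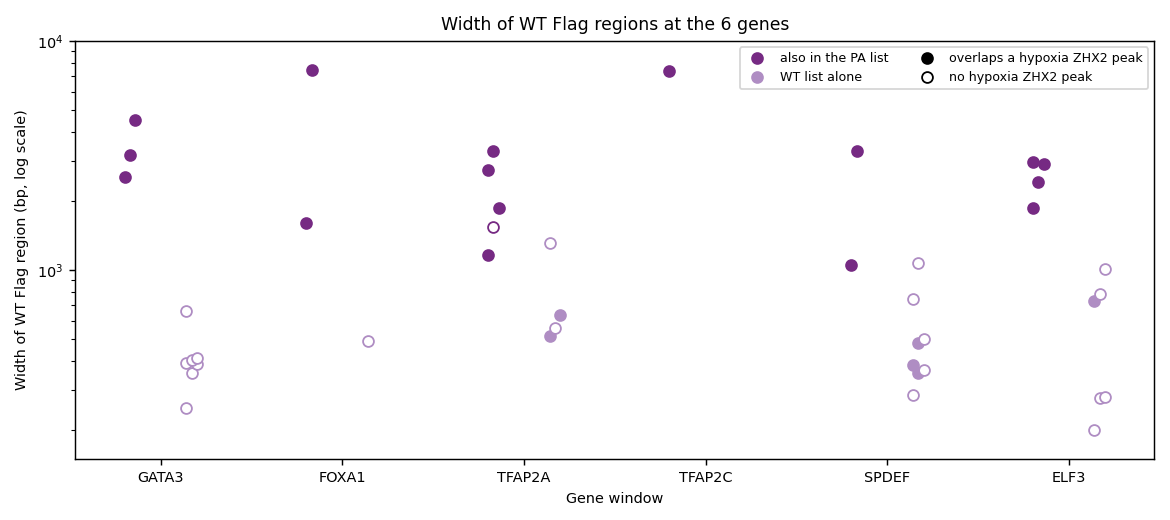
Width in bp (log scale) of every WT Flag region in the 6 windows; dark points are regions also listed for PA, light points those of the WT list alone, and filled points overlap a hypoxia ZHX2 peak. Shared regions are 1053 to 7422 bp wide and 16 of 17 hold a ZHX2 peak, while those of WT alone are 200 to 1307 bp wide and 6 of 26 do.

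Peaks of the ZHX2 antibody were set against the Flag regions. Of the 62 hypoxia ZHX2 peaks, 34 overlapped a PA region (54.8%, 42.5 to 66.6%, against 44.2% of the list) and 40 a WT region (64.5%, 52.1 to 75.3%, against 54.2%), and both intervals hold the list's value. Conversely, 22 of 43 WT regions held a hypoxia ZHX2 peak (51.2%, 36.8 to 65.4%, against 44.9%). Among regions also listed for PA 16 of 17 did, and among WT regions alone 6 of 26, against 69.5% of regions also listed for PA and 21.8% of regions of WT alone over the whole WT list. A wide region has more room for a peak, and the part of width was not tested. TFAP2C had all 7 hypoxia ZHX2 peaks inside its single Flag region. At SPDEF all 7 lay on WT regions and 4 on PA regions, and at GATA3 6 of 16 lay on either form, with summits between 4.67 and 15.0 kb from the start of the gene.

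The other genes of the luminal programme give a measure of the surroundings. A list of 26 luminal genes (hormone receptors, keratins, secreted luminal proteins and co-regulators) held ZHX2 peaks in 23 windows in hypoxia and in 19 in normoxia, and 21 of 26 had more in hypoxia. RARA, a retinoic acid receptor, had 19 in hypoxia and 4 in normoxia, and GREB1, an oestrogen receptor target, 13 in hypoxia and 4 in normoxia. KRT8, a luminal keratin, had 13 in hypoxia and 6 in normoxia, and ESR1, the oestrogen receptor, 12 in hypoxia and 1 in normoxia. The ESR1 window is the longest of these 26, at 512.9 kb, and its hypoxia ZHX2 peaks covered 0.750% of it. TFF1 and CITED1 had none in either condition. Among 20 paralogues of the luminal factors (other GATA, FOXA, AP-2 and ETS family genes), 18 had ZHX2 peaks in hypoxia, against 12 in normoxia, and 16 had more in hypoxia. Of all protein-coding genes, 77.0% had a ZHX2 peak in hypoxia, 52.0% had one in normoxia, and 59.0% had more in hypoxia. EHF, an epithelial ETS factor, had 8 in hypoxia and 0 in normoxia, GATA2 and GATA5 each had 7 in hypoxia and 4 in normoxia, and ELF2 had 7 in hypoxia and 2 in normoxia. EHF also had 48.1% of its window under H3K27ac in hypoxia and 53.9% in normoxia.

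The luminal label of T47D was set against the acetylation at marker genes. H3K27ac lay within 1 kb of a gene end at 6 of 6 luminal factors in hypoxia and in normoxia, at 25 of 26 luminal genes in hypoxia and 24 in normoxia, at 4 of 11 basal or myoepithelial markers in each and at 4 of 16 immune and stromal markers in each. It did so at 65.2% of protein-coding genes in hypoxia and at 64.4% in normoxia. The median share of the window under H3K27ac in hypoxia was 54.6% for the luminal factors, 43.8% for the luminal genes, 5.81% for the paralogues, 4.73% for the basal list and 4.17% for the immune and stromal list. The luminal factors were chosen as genes of luminal cells, so this order is a description of the cell line and was not tested.

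The genes whose windows looked most like each luminal factor were found from the covered share in all 8 lists (Euclidean distance in percentage points over 8 values, leaving out windows that overlap). The shares were not scaled, so lists with a wide range of cover weigh more. The 90th percentile of protein-coding genes was 28.4% for hypoxia H3K27ac and 4.34% for hypoxia ZHX2. For TFAP2C they were ABHD16B at 3.55, ZNF688 at 3.63 and GALR3 at 3.90 percentage points, where the median gene lay at 33.9. For SPDEF they were LDHD at 4.12, LOC122455340 at 6.85 and E2F1 at 6.85 (median gene 68.1), and for ELF3 WDR46 at 5.45, CDC6 at 5.64 and B3GALT4 at 5.81 (median gene 75.1). GATA3 had RPL10A at 6.37, ZNF296 at 6.43 and H3C2 at 6.43 (median gene 75.7), and TFAP2A had AKT1 at 6.82, CRABP2 at 8.11 and CISD3 at 8.81 (median gene 86.0). FOXA1 stood farthest from any other gene, with MAPK11 at 10.7, HOXC11 at 10.8 and MRPL49 at 11.7 (median gene 98.9).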

How the data were processed

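Peak lists of ChIP-seq in T47D were used as deposited, 1 list for each of 8 groups of 2 immunoprecipitated samples. The submitters' processing notes name cutadapt, Bowtie2, MACS2 and the build GRCh38 (hg38). Versions, pooling of samples, use of inputs and depth are not given in the sources used here. The authors' deposited ZHX2 and CTCF lists (with summits) and H3K27ac lists (without) give per peak a score, a fold enrichment (ratio over background) and a −log10 q, and the −log10 p was not used here. The deposited Flag lists give positions only. The lowest deposited −log10 q was 1.30 for ZHX2, 5.00 for CTCF and 3.47 for H3K27ac, so numbers are not compared between antibodies. These values only describe and order peaks inside 1 list.

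Only chromosomes 1 to 22 and X were used. Gene positions came from the RefSeq table of GRCh38.p14, without scaffold entries. An overlap of 1 bp or more made peaks shared, and positions are those of summits, or of midpoints where a list has none. A gene end is either annotated end, since the gene table gives no strand. Intervals are 95% Wilson intervals over neighbouring peaks that are not independent, and they cover counting error only. Python 3.11.15, pandas 2.3.3, numpy 2.4.6 and scipy 1.17.1 were used, and the steps were tested on simulated data. The text names all 6 luminal factors, the peak of highest fold (widest for Flag) and those at gene starts, the 3 genes with the most similar cover and up to 4 genes per list by hypoxia ZHX2 peaks; TFF1 and CITED1, and the ZHX2 peaks without a partner, without H3K27ac or on the strongest CTCF peak of SPDEF, were named after their values were seen. The members and gene lists were chosen with earlier results of these data known.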

Additional observations from a re-analysis of the deposited data

How the results depend on the processing

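No paired analysis was possible because each group has 1 list without values per sample, and leaving out a replicate was not possible for the same reason. Of 84 alternative values for 30 results, 60 kept within 1.5 times the number of peaks or within the interval of the share. With the upper 50% of each list by score (not run for Flag, which has none), the windows held 32 ZHX2 peaks in hypoxia and 17 in normoxia, 18 CTCF peaks in hypoxia and 22 in normoxia, and 15 H3K27ac peaks in hypoxia and 12 in normoxia. A flank of 5 kb left 18 normoxia ZHX2 peaks, 9 H3K27ac peaks in hypoxia and 9 in normoxia, and a flank of 50 kb gave 40 H3K27ac peaks in hypoxia and 37 in normoxia. Cut to the length of the partner list, chosen after seeing the data, hypoxia ZHX2 had 30 peaks and WT Flag 21 regions. With lists of equal length 48.3% of normoxia ZHX2 peaks and 19.0% of WT Flag regions had no partner, and no whole-list share at equal length is given for either. With midpoints within 250 bp 75% of hypoxia and 68.4% of normoxia H3K27ac peaks had none, and with a −log10 q of at least 5 (not possible for Flag) 0% of normoxia H3K27ac peaks did. With peaks reduced to 200 bp around summit or midpoint, which by construction removes most of a broad H3K27ac or Flag region, hypoxia ZHX2 peaks overlapped CTCF at 40.3%, H3K27ac at 3.23%, PA Flag at 8.06% and WT Flag at 16.1%, and normoxia ZHX2 peaks overlapped CTCF at 17.2% and H3K27ac at 3.45%. No whole-list share is given for peaks reduced to 200 bp. An overlap of 50% of the shorter peak and merging peaks within 500 bp moved none of the results they were run on. Unknown depth limits every number of peaks, since a deeper library lists more, and the list lengths cannot be told apart from the conditions.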
